A study of Mus musculus with 9 samples.

Results

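The SLC25 family comprises the carrier proteins that move metabolites, nucleotides and cofactors across the inner membrane of the mitochondrion. Its members were taken here by name. They were the genes with a single symbol on the array that reads Slc25a followed by a number, leaving out Slc25a1 and Slc25a20. This gave 44 members among 22180 genes, each read by 1 probe set, and a RefSeq gene table holds 45 genes of the same pattern. Liver RNA came from 9 euthyroid female mice, 3 in each of 3 groups, with 1 Affymetrix whole-transcript array per mouse. Control mice carried floxed alleles of both corepressor genes (SMRT and NCoR fl/fl) with no deletion. SMRT KO mice had SMRT deleted in the liver, and double KO mice had SMRT and NCoR deleted there. All mice were of a mixed 129SV/B6 background, 7 to 9 weeks old and on standard chow. The Cre driver and the NCoR allele of the SMRT KO mice are not given in the sources used here. There is no group lacking NCoR alone, so added loss of NCoR can be read from double KO against SMRT KO livers alone, together with anything else that sets those groups apart.

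NCoR and SMRT are corepressors that nuclear receptors use to hold target genes at a low level. In liver, mitochondrial carriers link the matrix to cytosolic work: they exchange ATP for ADP, pass reducing equivalents in the malate-aspartate shuttle, bring ornithine in for the urea cycle, and deliver coenzyme A, NAD, FAD, iron and glutathione to matrix enzymes. Most carriers work as exchangers, so that a substrate goes in as another comes out. The carriers were sorted into 6 groups by the substrate known for each: adenine nucleotides and phosphate (8 genes), dicarboxylates and oxoacids (3), amino acids (9), cofactors and nucleotides (9), iron and glutathione (4), and carriers that resemble uncoupling proteins or have no substrate given here (11).

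Pearson correlations ranged from 0.987 to 0.992 for arrays of the same group and from 0.983 to 0.989 for arrays of different groups. Marker genes of the cell types a liver sample can hold were summed per mouse (log2 of the sum). A gene was taken as above background where its mean exceeded 5.97, the level under which 95% of 1390 olfactory and vomeronasal receptor genes fell. Each sum took in all measured markers of its list, also those not above this level. The brackets give the markers above it. All 8 hepatocyte markers were above it and summed to 16.26 to 16.30 in control, 16.24 to 16.31 in SMRT KO and 16.15 to 16.19 in double KO livers, so that every double KO liver lay lowest. Taken singly, Alb and Ttr were lowest in every double KO liver, while Apoa1, Tat, Cps1, Hnf4a, Serpina1c and Fgb overlapped. Macrophage markers (8 of 8 above this level) summed to 11.82 to 12.02, 12.08 to 12.27 and 11.81 to 12.06 in the same order, highest in every SMRT KO liver. Cd68 and Vsig4 alone were highest in every SMRT KO liver, while Adgre1, Clec4f, C1qa, C1qb, Cd5l and Marco overlapped with another group. Endothelial markers (6 of 6) summed to 12.16 to 12.39, 12.40 to 12.50 and 12.20 to 12.50, with every SMRT KO liver above every control. Of the single genes, Lyve1 and Cdh5 separated these groups, while Pecam1, Stab2, Kdr and Clec4g overlapped. Stellate markers (6 of 6) summed to 12.12 to 12.39, 12.21 to 12.41 and 11.87 to 12.28. Among them Lrat, the enzyme that esterifies retinol, read 8.68 to 9.13 in control, 8.80 to 9.09 in SMRT KO and 6.97 to 7.19 in double KO livers. Lrat was called in both double KO comparisons, and no other marker of any list was called in any comparison. Cholangiocyte markers (4 of 4 measured) summed to 8.23 to 8.46, 8.42 to 8.50 and 8.49 to 8.62, with every double KO liver above every control. The lowest double KO sum, 8.485, was just above the highest control sum, 8.455. Krt19, Krt7 and Epcam values overlapped between these groups, and Sox9 values met at 7.172. Lymphocyte markers (2 of 5) summed to 8.07 to 8.18, 8.18 to 8.44 and 8.06 to 8.30. The lowest SMRT KO sum, 8.182, was barely above the highest control sum, 8.177. Cd3e values separated these groups and Cd3g values overlapped, and Cd8a, Cd79a and Ms4a1 were not above the receptor level. Adipocyte markers (2 of 5) summed to 7.90 to 8.39, 7.89 to 7.97 and 8.07 to 8.29, with Adipoq, Lep and Ucp1 not above it. Muscle markers (3 of 5) summed to 8.31 to 8.36, 8.29 to 8.47 and 8.38 to 8.48, with Myh4 and Actn3 not above the receptor level. The lowest double KO sum, 8.375, was just above the highest control sum, 8.355. Pancreatic acinar (2 of 3) and erythroid (1 of 1 measured) sums overlapped between all groups, and Cpa1 was not above the receptor level. The part of these cell types in the differences below was not tested, and in bulk RNA fewer cells of a type cannot be told apart from less RNA per cell. Probes of the deleted genes were not analysed here, so the genotypes were not checked.

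None of the 44 carriers of the name pattern passed the test in any comparison. Mtch2, a family protein outside the pattern, was called in both double KO comparisons and is given further below. Of 44 carriers, 0 were called at an adjusted p of 0.05 by limma in SMRT KO against control livers, where 0.00451% of all genes were called. The count was also 0 in double KO against control livers (0.843% of all genes) and in double KO against SMRT KO livers (1.19% of all genes). At an unadjusted p under 0.05 limma counted 3, 11 and 12 carriers in these comparisons, against 6.00%, 10.8% and 10.5% of all genes. As shares of the 44 carriers these were 6.82%, 25% and 27.3%. Among the 36 carriers above the receptor level they were 5.56%, 25% and 33.3%, against 5.01%, 12.8% and 14.3% of all genes above it. The carriers nearest to the threshold were Slc25a30 and Slc25a45, both higher in double KO than in SMRT KO livers at an adjusted p of 0.0612, and Slc25a21 in the same comparison at 0.0854.

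Standard errors of the log2 fold change ran from 0.0547 to 0.357 over the carriers with a median of 0.099, the same in each comparison. In each comparison the 95% interval lay within 1.5-fold of no difference for 38 of 44 carriers. These took in all 8 carriers at or below the receptor level, and Slc25a34 and Slc25a36, which had 1 value on 5 arrays. For such probe sets a narrow interval does not show that the RNA was unchanged. The 6 others were Slc25a25, Slc25a30 and Slc25a33 in all 3 comparisons, joined by Slc25a21, Slc25a48 and Slc25a51 in SMRT KO against control, by Slc25a22, Slc25a32 and Slc25a45 in double KO against control, and by Slc25a32, Slc25a45 and Slc25a51 in double KO against SMRT KO. The median absolute log2 fold change of the carriers was 0.0618 in SMRT KO against control (0.0701 over all genes), 0.113 in double KO against control (0.0788) and 0.142 in double KO against SMRT KO (0.0782). The signed medians were -0.0263, 0.024 and 0.0483, against 0.00087, 0.00359 and 0.00166 over all genes.

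**Figure D1:**
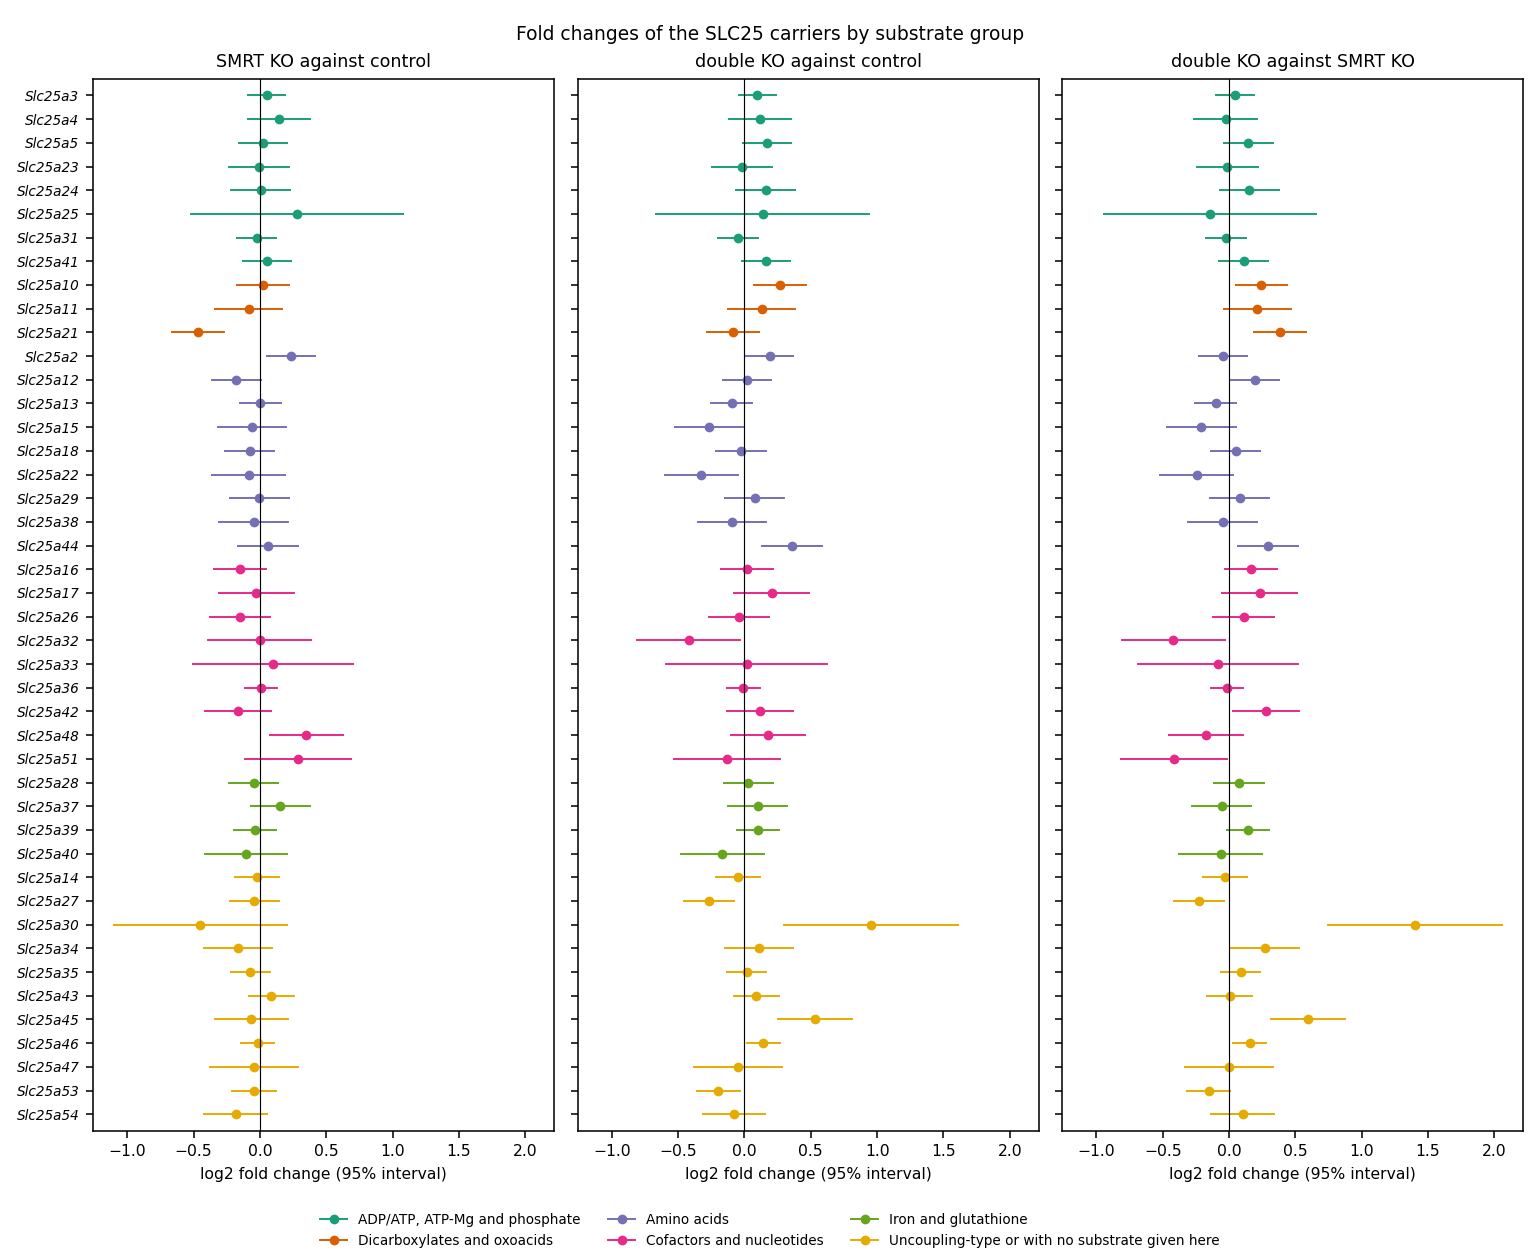
Log2 fold change (x axis, log2 units) of each of the 44 carriers (rows) in the 3 comparisons (panels), with its 95% interval from limma as a line and the substrate group as colour. Most points lie near 0, and Slc25a30 is farthest to the right in double KO against SMRT KO livers, at 1.40.

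The promoters of Slc25a30 and Slc25a45 are printed because they had the smallest adjusted p of the 44 carriers. Each run holds 250 bases before to 50 bases after the start of the gene, from RefSeq on build GRCm38.p6, read 5′ to 3′ on the strand of the gene. The capitals mark AGGTCA, the core motif that many nuclear receptors bind, searched on both strands.
Slc25a30 (chr14:75786988-75787287, minus strand): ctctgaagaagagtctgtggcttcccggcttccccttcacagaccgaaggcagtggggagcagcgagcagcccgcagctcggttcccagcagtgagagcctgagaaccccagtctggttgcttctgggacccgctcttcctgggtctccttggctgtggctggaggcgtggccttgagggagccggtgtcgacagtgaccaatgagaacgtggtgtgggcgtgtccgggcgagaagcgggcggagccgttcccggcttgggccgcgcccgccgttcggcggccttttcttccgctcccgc
Slc25a45 (chr19:5877572-5877871, plus strand): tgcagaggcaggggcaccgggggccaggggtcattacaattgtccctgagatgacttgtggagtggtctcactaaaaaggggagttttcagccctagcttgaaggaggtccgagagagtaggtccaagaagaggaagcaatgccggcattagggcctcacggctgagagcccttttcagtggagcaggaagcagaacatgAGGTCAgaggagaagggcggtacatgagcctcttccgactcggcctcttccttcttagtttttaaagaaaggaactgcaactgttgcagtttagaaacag
The Slc25a45 window held 1 match and the Slc25a30 window 0. RefSeq promoters were found for 34 of the 44 carriers, 44 windows in all, and 4 of these windows (9.09%) held the motif, against 16.3% of all promoters of that length. The other 3 belonged to Slc25a34, Slc25a39 and Slc25a47. Pairs of the motif in the same direction with 1 or 4 bases between them were in 0 carrier windows, and in 0.0396% and 0.0152% of all promoters. A match of letters is not a binding site, and no match says only that these letters are not in the window.

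The carriers that resemble uncoupling proteins or have no substrate given here included both Slc25a30 and Slc25a45. Their median log2 fold change was -0.0451 in SMRT KO against control, with 10 of 11 below 0, against 10993 of 22180 over all genes. That median is the value of Slc25a53, which with Slc25a14, Slc25a43 and Slc25a54 was not above the receptor level. The median was 0.0163 in double KO against control and 0.0884 in double KO against SMRT KO. Slc25a30, a carrier of the uncoupling protein branch, read 9.12, 9.73 and 9.03 in the 3 control livers, 9.38, 8.66 and 8.49 in SMRT KO livers and 10.12, 9.87 and 10.75 in double KO livers (log2 expression). All 3 double KO values lay above all other values, while control and SMRT KO values overlapped. Summed hepatocyte markers were lowest in the same double KO livers, though of the single markers only Alb and Ttr were. The double KO mean of Slc25a30 was 2.64-fold above SMRT KO (log2 fold change 1.40, standard error 0.291, 95% interval 0.748 to 2.06) and 1.93-fold above control (log2 fold change 0.952, adjusted p = 0.237). Its adjusted p against SMRT KO ranged from 0.0369 to 0.192 over 15 alternatives, and it passed where dim genes were left out of the fit (0.0369), which leaves 13123 genes to adjust over.

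Slc25a45, a carrier with no substrate given here, differed by less but with a narrower spread. Its values were 8.09, 8.39 and 8.34 in control, 7.95, 8.39 and 8.27 in SMRT KO and 8.69, 8.82 and 8.89 in double KO livers. The double KO livers again lay above the 6 others. The mean was 1.51-fold above SMRT KO (log2 fold change 0.595, standard error 0.123, adjusted p = 0.0612) and 1.44-fold above control (0.53, adjusted p = 0.114). Against SMRT KO it passed after cyclic loess normalization (adjusted p = 0.047) and with dim genes left out (0.0365), in a range of 0.0202 to 0.217 over 15 alternatives. In SMRT KO against control its log2 fold change was -0.0643 (95% interval -0.342 to 0.213).

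Among the rest of this group, Slc25a46 and Slc25a27 also kept double KO livers apart. Slc25a46, an outer-membrane protein that shapes mitochondria, read 9.78, 9.79 and 9.74 in control, 9.76, 9.72 and 9.79 in SMRT KO and 9.92, 9.93 and 9.89 in double KO livers. The separation was complete but small, 1.10-fold against control (adjusted p = 0.381) and 1.12-fold against SMRT KO (adjusted p = 0.319). Slc25a27, also called uncoupling protein 4, was lower in the mean in double KO livers, at 6.96, 7.16 and 7.01 against 7.39, 7.25 and 7.29 in control and 7.24, 7.17 and 7.40 in SMRT KO livers. Its log2 fold change was -0.269 against control (adjusted p = 0.248) and -0.227 against SMRT KO (adjusted p = 0.355). Slc25a53 had -0.198 against control (adjusted p = 0.346), but its mean of 5.08 over the arrays lay below the receptor level. Slc25a54, also below the receptor level, had -0.183 in SMRT KO against control (adjusted p = 0.9), and -0.0601 without SMRT KO replicate 3. Slc25a47, a carrier made mainly in liver, had group means of 11.61 ± 0.0802 in control, 11.56 ± 0.168 in SMRT KO and 11.56 ± 0.315 in double KO livers (SD, n = 3 each). Its 95% interval in double KO against control was -0.38 to 0.284.

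Slc25a21 showed the family's lowest p in SMRT KO livers, and a different order of groups. It carries oxoadipate, an intermediate of lysine and tryptophan breakdown, into the matrix. Its values were 8.65, 8.55 and 8.66 in control, 8.01, 8.22 and 8.23 in SMRT KO and 8.39, 8.59 and 8.62 in double KO livers. SMRT KO livers lay below all others, and double KO livers overlapped with control. The SMRT KO livers also had the highest macrophage marker sums, and their endothelial and lymphocyte marker sums lay above every control. The gap to control was small for endothelial (12.40 against 12.39) and lymphocyte sums (8.182 against 8.177). For macrophage sums the gap to double KO livers was small (12.08 against 12.06), and of single macrophage markers only Cd68 and Vsig4 were highest in every SMRT KO liver. None of these markers was called, and their part in the Slc25a21 values was not tested. The SMRT KO mean was 1.38-fold below control (log2 fold change -0.469, standard error 0.0868, adjusted p = 0.326), and the double KO mean 1.30-fold above SMRT KO (0.383, adjusted p = 0.0854). The latter passed with dim genes left out (adjusted p = 0.0497, range 0.0497 to 0.273 over 15 alternatives). In double KO against control the log2 fold change was -0.0861 (95% interval -0.281 to 0.109). These comparisons share the SMRT KO or control arrays, so they are not separate observations.

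The other dicarboxylate carriers were higher in the mean in double KO livers. Slc25a10, which exchanges malate or succinate for phosphate, read 9.32, 9.09 and 9.32 in control, 9.12, 9.36 and 9.32 in SMRT KO and 9.51, 9.49 and 9.53 in double KO livers. The double KO values did not overlap with the others and spread least (SD 0.0237, against 0.129 and 0.127). The log2 fold change was 0.266 against control (adjusted p = 0.269) and 0.244 against SMRT KO (adjusted p = 0.33). Slc25a11, which exchanges 2-oxoglutarate for malate in the malate-aspartate shuttle, had 0.131 (adjusted p = 0.762) and 0.214 (adjusted p = 0.58), with overlapping groups. All 3 carriers of this group were above 0 in double KO against SMRT KO livers (median 0.244).

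**Figure D2:**
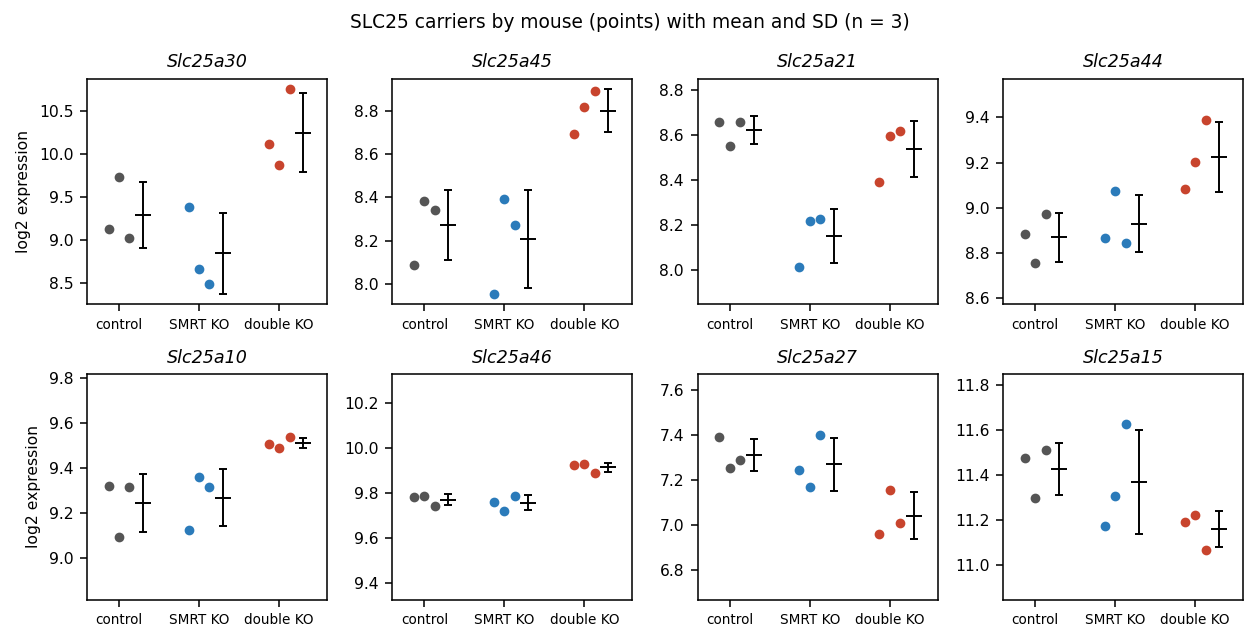
Log2 expression (y axis) of 8 carriers in each mouse, by group (x axis); points are mice and the black mark with bars is the mean with SD (n = 3). Each panel has its own y range of at least 1 log2 unit. Double KO points lie above all others for Slc25a30, Slc25a45, Slc25a44, Slc25a10 and Slc25a46 and below all others for Slc25a27, and SMRT KO points lie lowest for Slc25a21.

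Amino acid carriers had differences of both signs in double KO livers. Against control, 4 of 9 were above 0 and 5 below (median -0.0268), and the extremes were Slc25a44 and Slc25a22. Slc25a44, which imports branched-chain amino acids, read 8.88, 8.75 and 8.97 in control, 8.87, 9.07 and 8.85 in SMRT KO and 9.08, 9.20 and 9.39 in double KO livers. The lowest double KO value was just above the highest SMRT KO value. It was 1.28-fold above control (log2 fold change 0.355, adjusted p = 0.204) and 1.23-fold above SMRT KO (0.296, adjusted p = 0.302).

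Slc25a22 and Slc25a15 stood on the lower side. Slc25a22, a glutamate carrier, read 9.75, 9.73 and 9.61 in control, 9.48, 9.61 and 9.75 in SMRT KO and 9.34, 9.13 and 9.63 in double KO livers, with a log2 fold change of -0.327 against control (adjusted p = 0.362). Double KO replicate 3 lay within the control range. Slc25a15, the ornithine carrier of the urea cycle, read 11.48, 11.30 and 11.51 in control, 11.18, 11.31 and 11.63 in SMRT KO and 11.19, 11.22 and 11.07 in double KO livers. Double KO values lay below every control value and overlapped with SMRT KO (log2 fold change -0.267 against control, adjusted p = 0.442). Summed hepatocyte markers were also lowest in double KO livers. Their part in the values of Slc25a22, Slc25a15 and, below, Slc25a32 was not tested.

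The aspartate-glutamate carriers of the malate-aspartate shuttle had small differences that did not pass. Slc25a13, the liver form known as citrin, had group means of 11.05 ± 0.0587, 11.05 ± 0.0352 and 10.95 ± 0.0972 in control, SMRT KO and double KO livers (SD, n = 3 each). Its 95% interval was -0.152 to 0.158 in SMRT KO and -0.252 to 0.0586 in double KO against control. Slc25a12, its paralog, was lower in the mean in SMRT KO than in control livers (log2 fold change -0.177, adjusted p = 0.845) and at 0.0201 in double KO against control. Slc25a2, a further ornithine carrier, had a log2 fold change of 0.233 in SMRT KO against control (adjusted p = 0.772) with groups that did not overlap, but its mean of 4.95 lay within the range of the receptor genes. Slc25a38, which supplies glycine for heme synthesis, was between -0.0466 and -0.0938 in all 3 comparisons.

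Cofactor carriers also had differences of both signs, with a median of -0.0024 in SMRT KO against control and 0.016 in double KO against control. Between the knockouts the median was -0.016. Slc25a32, which brings FAD and folate into the matrix, read 9.44, 9.11 and 9.33 in control, 9.70, 9.09 and 9.07 in SMRT KO and 8.82, 8.72 and 9.07 in double KO livers. The double KO mean was 1.34-fold below control (log2 fold change -0.422, adjusted p = 0.415), and SMRT KO replicate 1 was the highest of the 9 mice. Slc25a51, the NAD carrier, read 9.89, 9.15 and 9.79 in control, 10.00, 9.66 and 10.02 in SMRT KO and 9.43, 9.51 and 9.50 in double KO livers, with control replicate 2 the lowest. Its log2 fold change was 0.286 in SMRT KO against control (adjusted p = 0.906), and it was 0.0569 without control replicate 2 and 0.425 without control replicate 1. Between the knockouts, double KO against SMRT KO, it was -0.415 (adjusted p = 0.452). Slc25a48, a choline carrier, was 1.27-fold higher in the mean in SMRT KO than in control livers (log2 fold change 0.35, adjusted p = 0.775).

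Of the 9 cofactor carriers, 4 were above 0 and 5 below in double KO against SMRT KO livers. Slc25a42, which exchanges coenzyme A for adenine nucleotides, had 0.28 (adjusted p = 0.399), Slc25a16 had 0.168 (adjusted p = 0.575) and Slc25a17, the carrier of the peroxisome membrane, had 0.232 (adjusted p = 0.595). Against control these were 0.116, 0.02 and 0.204, and in SMRT KO against control -0.165, -0.148 and -0.0279. Without SMRT KO replicate 1 the value of -0.148, that of Slc25a16, was -0.0521. The pyrimidine nucleotide carriers Slc25a33 and Slc25a36 had 0.016 and -0.00885 in double KO against control, and Slc25a26, which carries S-adenosylmethionine, had -0.0399.

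Adenine nucleotide and phosphate carriers were above 0 for 6 of 8 in both knockouts against control, with medians of 0.0374 in SMRT KO and 0.126 in double KO livers. Over all genes 11178 and 11381 of 22180 were above 0. Slc25a31 and Slc25a41 were not above the receptor level, and Slc25a41 was among the 6 in both comparisons. Slc25a5, an ADP/ATP translocase, read 12.11, 12.24 and 12.29 in control, 12.09, 12.33 and 12.29 in SMRT KO and 12.35, 12.38 and 12.42 in double KO livers. Its double KO values did not overlap with the other groups, at 1.12-fold above control (log2 fold change 0.17, 95% interval -0.0137 to 0.353, adjusted p = 0.505). The phosphate carrier Slc25a3 had 0.0979 and the translocase Slc25a4 had 0.114 in double KO against control, and Slc25a4 had 0.141 in SMRT KO against control (0.0779 without SMRT KO replicate 1). Slc25a25, a calcium-regulated ATP-Mg and phosphate carrier, had the widest interval of the family. Control replicate 1 read 9.13 and control replicates 2 and 3 read 7.89 and 7.59, so that the log2 fold change of 0.138 in double KO against control had an interval of -0.664 to 0.94. Without control replicate 1 that value was 0.603, and without control replicate 3 it was -0.168, and neither passed. Its paralog Slc25a23 had -0.0197.

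Iron and glutathione carriers lay between -0.167 and 0.105 in double KO against control, with a median of 0.0635. The mitoferrins Slc25a37 and Slc25a28, which import iron, had log2 values of 9.15 to 9.55 and 9.00 to 9.33 over the 9 mice. They had log2 fold changes of 0.099 and 0.028 in double KO against control, and 0.155 and -0.0458 in SMRT KO against control. Without SMRT KO replicate 2 the value of Slc25a37 in SMRT KO against control was 0.0587. The glutathione carriers Slc25a39 and Slc25a40 had 0.105 and -0.167 in double KO against control. Slc25a39 separated double KO from SMRT KO livers, at 10.89, 10.96 and 11.03 against 10.79, 10.81 and 10.86, and overlapped with control (log2 fold change 0.14 against SMRT KO, adjusted p = 0.55).

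Groups that did not overlap were counted over the family. In double KO against control, 7 of 44 carriers were higher and 4 of 44 were lower with no overlap between the mice of the groups. Over all genes these shares were 7.73% and 7.25%. In double KO against SMRT KO these counts were 9 and 3, against 7.54% and 6.21%. In SMRT KO against control they were 1 and 1, against 3.80% and 4.36%. The 7 higher carriers in double KO against control were Slc25a2, Slc25a5, Slc25a10, Slc25a30, Slc25a44, Slc25a45 and Slc25a46, and the 4 lower ones Slc25a15, Slc25a27, Slc25a32 and Slc25a53. Slc25a2 and Slc25a53 were not above the receptor level. Of the 36 carriers above it, 6 were higher and 3 lower, against 1329 and 1176 of 13123 genes above it. In double KO against SMRT KO these were 9 and 2, against 1294 and 1119.

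**Figure D3:**
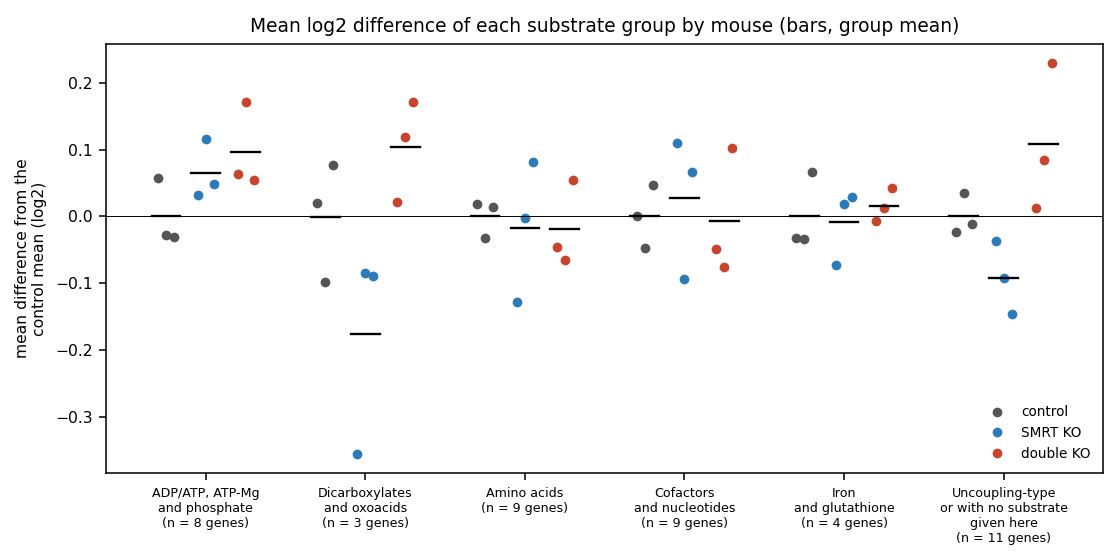
Mean log2 difference from the control mean (y axis) over the carriers of each substrate group (x axis), 1 point per mouse coloured by group, with a black bar at the mean of the 3 mice. Double KO replicate 3 has the highest mean in the group of uncoupling-type carriers or those with no substrate given here, at 0.229. Slc25a30, 1 of the 11 carriers of that group, read 10.75 in that mouse against a control mean of 9.29. SMRT KO replicate 1 has the lowest mean among dicarboxylate carriers, at -0.355.

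Over all 44 carriers the mean log2 difference from control was -0.038, -0.026 and -0.001 in the SMRT KO livers and -0.004, 0.033 and 0.115 in the double KO livers, against 0.007, -0.022 and 0.015 in the controls. Double KO replicate 3 was the highest of the 9 mice. Of the 44 carriers, 8 had a mean at or below the receptor level of 5.97, and 10 had the same value on 3 or more arrays, as did 28.9% of all genes. Slc25a31, Slc25a34 and Slc25a36 had 1 value on 5 arrays.

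Related transporters and partner enzymes of the carriers were read from lists, and some of these genes passed the test in the double KO comparisons. In SMRT KO against control 0 of them were called by limma (0.00451% of all genes), and 3 had an unadjusted p under 0.05 (6.00% of all genes). Of 13 measured carriers and transporters outside the name pattern, 1 rose and 0 fell in double KO against control, where 0.843% of all genes were called. Against SMRT KO livers 2 rose and 0 fell in double KO livers, where 1.19% of all genes were called. The median log2 fold changes were 0.146 and 0.112. Mtch2, an SLC25 family protein under another name, sits in the mitochondrial outer membrane. It read 10.92, 10.97 and 10.96 in control, 10.86, 10.82 and 10.95 in SMRT KO and 11.42, 11.43 and 11.34 in double KO livers. It rose 1.36-fold against control (log2 fold change 0.448, standard error 0.0609, adjusted p = 0.0125) and 1.43-fold against SMRT KO (0.52, adjusted p = 0.00504). The call against SMRT KO held in all 15 alternatives (adjusted p up to 0.0307), and that against control was lost without control replicate 1 or 3 or double KO replicate 1 or 2 (up to 0.067). Letm1, a cation exchanger of the inner membrane, read 8.84, 8.89 and 8.65 in control, 8.72, 8.63 and 8.66 in SMRT KO and 9.02, 9.08 and 9.22 in double KO livers. It rose 1.35-fold against SMRT KO (adjusted p = 0.0399) and was not called against control (log2 fold change 0.313, adjusted p = 0.164). The call was lost without control replicate 1 or 2, any SMRT KO mouse, any double KO mouse or the third group (up to 0.139). The mitochondrial pyruvate carrier subunit Mpc1 had -0.057 and the calcium uniporter Mcu 0.171 in double KO against control.

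Enzymes of cofactor supply included both ends of coenzyme A synthesis. Of 7 measured, 2 rose and 0 fell in double KO against SMRT KO (median 0.264), against 1.19% of all genes called. Limma called 0 in double KO against control (median 0.0898), against 0.843% of all genes, and 3 had an unadjusted p under 0.05, against 10.8% of all genes. Pank1, the pantothenate kinase that opens coenzyme A synthesis, read 12.18, 12.18 and 12.26 in control, 12.05, 12.09 and 12.06 in SMRT KO and 12.43, 12.43 and 12.53 in double KO livers, and rose 1.32-fold (log2 fold change 0.396, adjusted p = 0.0148). Coasy, which finishes coenzyme A synthesis, read 9.10, 9.10 and 9.08 in control, 9.09, 8.98 and 8.93 in SMRT KO and 9.34, 9.32 and 9.37 in double KO livers, and rose 1.27-fold (0.341, adjusted p = 0.0344). For both genes the groups lay in the order SMRT KO, control, double KO, with overlap between SMRT KO and control for Coasy. Against control Pank1 had 0.26 (adjusted p = 0.104) and Coasy 0.251 (adjusted p = 0.129). The Pank1 call was lost without SMRT KO replicate 1 or double KO replicate 2 or 3, and when the third group was not fitted (adjusted p up to 0.0596). The Coasy call was lost without any control or double KO mouse, without SMRT KO replicate 2 or 3, after cyclic loess and when the third group was not fitted (up to 0.115).

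Of 9 shuttle enzymes, 2 rose and 0 fell in both double KO comparisons, against 0.843% of all genes called in double KO against control and 1.19% in double KO against SMRT KO. Gpd2, the mitochondrial enzyme of the glycerol phosphate shuttle, read 8.30, 8.59 and 8.58 in control, 8.49, 8.38 and 7.87 in SMRT KO and 9.43, 9.28 and 9.41 in double KO livers. It rose 2.18-fold against SMRT KO (adjusted p = 0.00875) and 1.84-fold against control (adjusted p = 0.0346), the latter lost without any control or double KO mouse or SMRT KO replicate 2 (up to 0.133). Me1, the cytosolic malic enzyme that makes NADPH, read 10.76, 10.68 and 10.97 in control, 11.02, 10.77 and 10.01 in SMRT KO and 12.28, 12.22 and 12.14 in double KO livers. It rose 3.06-fold against SMRT KO (adjusted p = 0.00809, 0.0504 when control livers were not fitted) and 2.66-fold against control (adjusted p = 0.0195), and the latter was lost without any control or double KO mouse (up to 0.0942). The malate-aspartate enzymes Mdh1, Mdh2 and Got2 had 0.134, 0.121 and 0.0376 in double KO against control, and Got1 had -0.506 (adjusted p = 0.48). None of 5 measured heme and iron-sulfur genes was called by limma in any comparison, 0 had an unadjusted p under 0.05, and their medians were -0.0629, 0.0085 and 0.0461.

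**Figure D4:**
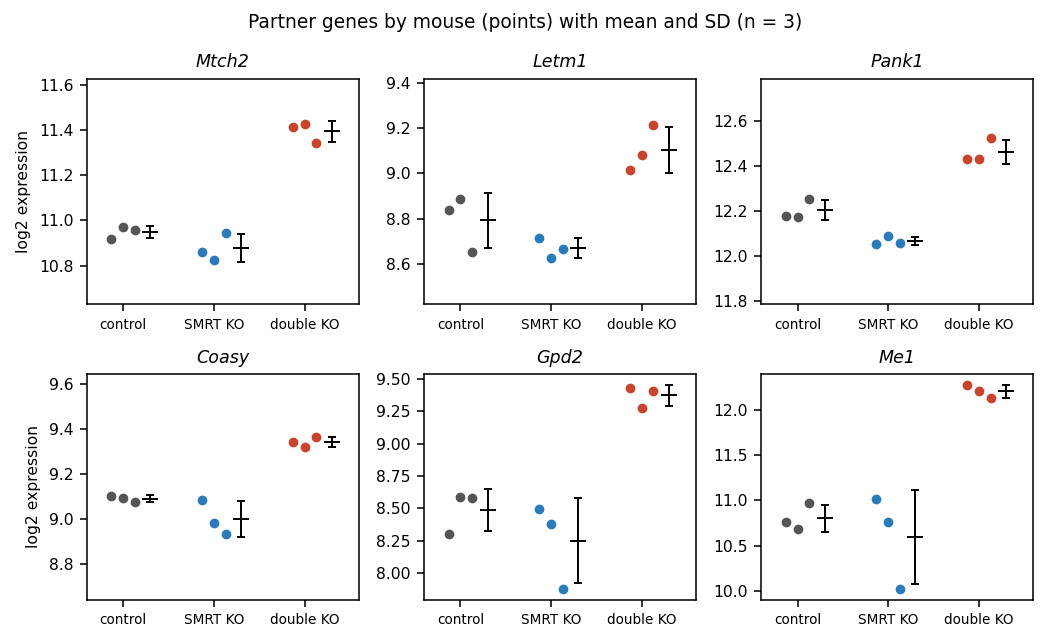
Log2 expression (y axis) of 6 partner genes in each mouse, by group (x axis); points are mice and the black mark with bars is the mean with SD (n = 3). Each panel has its own y range of at least 1 log2 unit, and the double KO points lie above all others in every panel, as for Mtch2 at 11.34 to 11.43 against 10.82 to 10.97.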

How the data were processed

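Liver RNA (200 ng per mouse) was hybridised to Affymetrix whole-transcript arrays. The authors deposited log2 expression values per the submitters' processing notes with RMA, which normalizes all arrays together, so that a shift shared by most genes would not show. The RMA version was not stated in what was used here. An array has no sequencing depth, and precision is limited by the number of arrays. Of 41345 probe sets, 23521 had 1 gene symbol in the platform annotation. Where 1082 genes had several, the probe set with the highest mean was kept, giving 22180 genes. All 44 members matched RefSeq (GRCm38.p6) by Entrez identifier. Groups came from the sample titles, with 0 columns unmatched.

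The test was a two-sided limma fit (version 3.58.1, R 4.3.3, with eBayes) in 1 model over 9 arrays and 3 groups with no block (6 residual and 3.36 prior degrees of freedom). P-values were adjusted by Benjamini-Hochberg over all 22180 genes in each of 3 comparisons, and called below 0.05. With 3 mice against 3 an exact permutation test cannot go below 0.1, so none was used. The steps were tested on simulated data.

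Members, substrate groups and gene lists were chosen with earlier results of these data known. Named members had the 5 smallest p in each direction per comparison, or were 6 carriers with a known liver role. From the partner lists every called gene was named. Other members were named for their substrate group after their values were seen. Alternatives were the replicate block, 2 groups only, cyclic loess, dim genes left out, mean of probe sets, a trended robust prior and each mouse left out.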

Additional observations from a re-analysis of the deposited data

How the results depend on the processing

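The count of called carriers was 0 in all 9 fits that left out 1 mouse, in each of the 3 comparisons. With the replicate number as a block it was 1 in double KO against control and 1 in double KO against SMRT KO, which was Slc25a45 in both (limma adjusted p = 0.0373 and 0.0202). Deviations from the group means correlated at -0.0845 to 0.117 between same-numbered mice of different groups, and 4 of 9 mice correlated best with a mouse of their own number, so the numbers are not shown to pair the mice. The block changed the calls of Gpd2 (double KO against control, 0.0735), Letm1 (0.103) and Coasy (0.0773, both double KO against SMRT KO). In double KO against SMRT KO the count was 1 after cyclic loess and 3 with dim genes left out, where fewer genes were tested. It was 0 in the other settings, and 0 in every setting for SMRT KO against control. All carriers had 1 probe set, so averaging probe sets left their values as they were.

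Among 791 fits of single named genes under an alternative, 722 kept direction and side of the threshold, 6 gained a call, 44 lost it and 19 turned direction. All 19 had 1 mouse left out, and the cause was not tested. Over these fits Slc25a47 ran from -0.127 to 0.0404 in SMRT KO against control, from -0.228 to 0.0614 in double KO against control and from -0.184 to 0.106 in double KO against SMRT KO. Slc25a25 ran from -0.0255 to 0.745, from -0.168 to 0.603 and from -0.262 to 0.0454 in the same order. In SMRT KO against control Slc25a13 ran from -0.0306 to 0.0235, Slc25a10 from -0.0515 to 0.095 and Slc25a15 from -0.187 to 0.0375. Over all genes, the calls in double KO against control fell from 187 to 109 with the 2 groups fitted alone and to between 61 and 179 with 1 mouse left out. In double KO against SMRT KO they fell from 263 to 124 and to between 101 and 234, and in SMRT KO against control the count of 1 ran from 0 to 23. Other settings raised the calls. In double KO against control they were 206 after cyclic loess, 218 with the trended robust prior and 256 with dim genes left out. In double KO against SMRT KO they were 289, 299 and 370 in the same order. With the replicate block these comparisons had 152 and 195 calls, and with the mean of probe sets 192 and 272. With 3 mice a group, differences under the intervals given cannot be shown.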
